A study of Mus musculus with 8 samples.

Results

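The DLX homeobox family comprises 7 of the 36333 rows of the deposited expression table, chosen by gene symbol: the protein-coding genes Dlx1, Dlx2, Dlx3, Dlx4, Dlx5 and Dlx6, and Dlx1as, an RNA annotated on the strand opposite Dlx1. Bulk RNA sequencing measured the RNA of dissected mouse embryo tissue in 4 groups of 2 libraries each. The groups were EED-cKO forebrain at embryonic day (E) 15.5, wild-type (wt) forebrain at E15.5, wt spinal cord at E13.5 and wt forebrain at E13.5. EED-cKO embryos carry a knockout of Eed that depends on Sox1-Cre, a recombinase driven by a gene of early neural cells, so cells of other origin in the dissected tissue keep Eed. EED belongs to PRC2, the Polycomb complex that places a repressive mark on histone H3. Knockout spinal cord, mentioned in the design, is not analysed here.

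DLX proteins are the vertebrate relatives of fly Distal-less, homeodomain transcription factors that lie in pairs of genes facing each other. In the embryonic forebrain, Dlx1 and Dlx2 are switched on in progenitors of the ganglionic eminences, the ventral swellings that give rise to GABAergic interneurons and striatal neurons, and Dlx5 and Dlx6 follow as these cells differentiate. Outside the brain, Dlx5 and Dlx6 pattern the lower jaw and contribute to bone, Dlx3 acts in epidermis, placenta and teeth, and Dlx4 is a little-studied partner of Dlx3. Several DLX loci also make long non-coding RNAs from the opposite strand, among them Dlx6os1 (also called Evf2), which is known to take part in regulating Dlx5 and Dlx6 in the ganglionic eminences.

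Values were RPKM, reads per kilobase of transcript scaled to mapped reads, which allow levels of different genes to be compared per length. They were rounded to 0.1 RPKM and came without read counts, so the depth is unknown and no counting interval is given. Summed over all rows, RPKM came to between 378294 and 397320 at E13.5 and between 761647 and 843296 at E15.5. For the E15.5 columns, names were reassigned in alphabetical order, which moved 23016 names but 0 of the 7 members. This order was inferred from the data, so the values of moved genes, and the list counts that hold them, depend on it. Other genes that moved are marked as such below where they are named. Eed was at 10 and 10.6 RPKM in EED-cKO forebrain and at 25.8 and 27.9 RPKM in wt forebrain at the same age. It fell in EED-cKO forebrain (log2 change −1.30 ± 0.085 SE, limma adjusted p = 8.7e-05). Whether replicates are separate embryos or pools is not stated, so the p-values speak for the spread of these libraries, which may be technical. In bulk tissue, fewer cells of a type and less RNA per cell cannot be told apart.

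The 3 pairs lie on 3 chromosomes of the GRCm38 build (GENCODE annotation). Dlx1 (chromosome 2, 71528113 to 71533981, plus strand) and Dlx2 (71543408 to 71546754, minus strand) are separated by 9426 bases. Dlx6 (chromosome 6, 6863334 to 6868568, plus strand) and Dlx5 (6877805 to 6882085, minus strand) are separated by 9236 bases. Dlx3 (chromosome 11, 95120119 to 95125296, plus strand) and Dlx4 (95140447 to 95146263, minus strand) are separated by 15150 bases. In each pair the 3′ ends face each other. Dlx1as (71516454 to 71537891, minus strand) spans Dlx1, and 335 of its 1630 exonic bases (20.6%) lie over exons of Dlx1. Because the reads were unstranded, reads from these 335 bases, which are 6.21% of the exonic bases of Dlx1, cannot be assigned to either strand. Dlx6os1 (6820189 to 6871592, minus strand) spans Dlx6 and shares 0 exonic bases with Dlx6 or Dlx5. Dlx6os2 (6863797 to 6865150, minus strand) shares 104 exonic bases with Dlx6, and Dlx4os (95145052 to 95159047, plus strand) shares 79 with Dlx4.

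**Figure D1:**
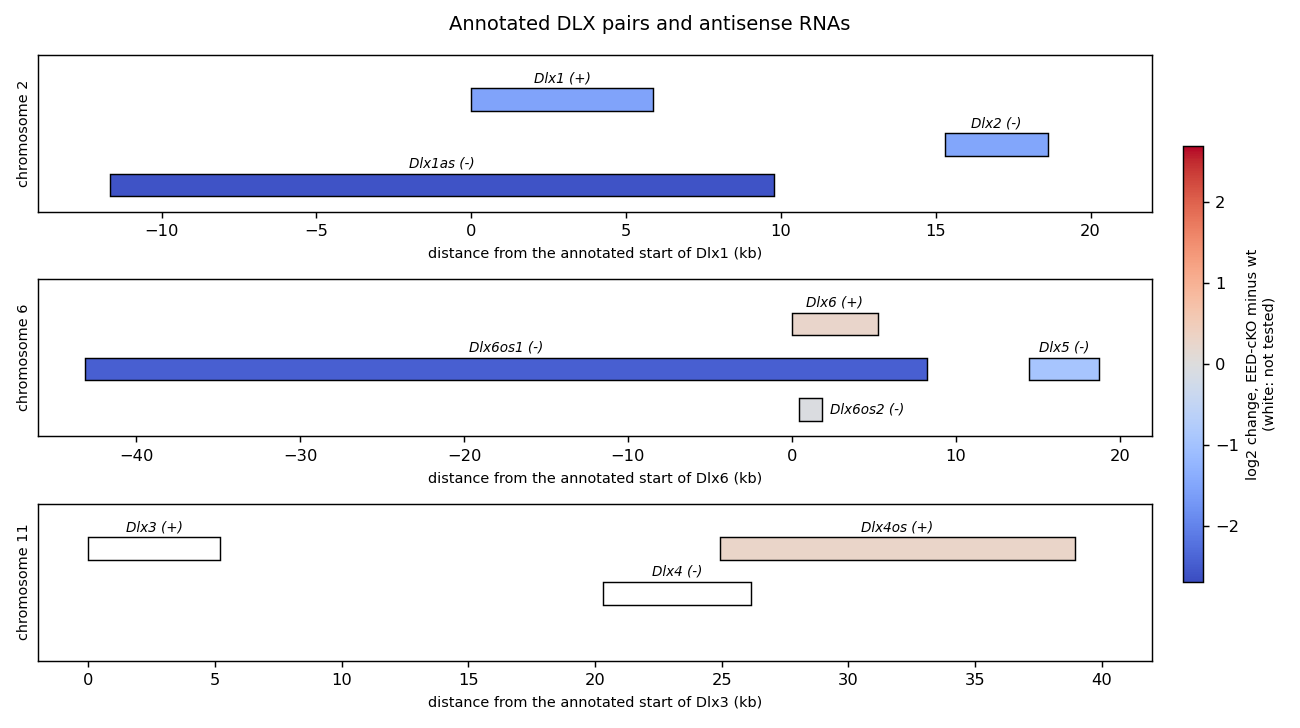
Positions of the DLX genes and their antisense RNAs, in kb from the annotated start of Dlx1, Dlx6 or Dlx3, with strands in brackets. Colour gives the log2 change of RPKM + 1, EED-cKO minus wt E15.5 forebrain, from −2.61 for Dlx1as to 0.29 for Dlx4os, and white marks Dlx3 and Dlx4, which were not tested.

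Promoters are shown for Dlx1, Dlx2 and Dlx6os1, which fell in EED-cKO forebrain (values below) and have an entry in the promoter table; Dlx1as and Dlx5, which also fell, are named only. For Dlx6os1, which has 2 entries, the one with more CG is printed. The sequences are RefSeq promoters on GRCm38.p6, 5′ to 3′ on the gene's own strand, with every CG dinucleotide in capitals. Each window runs from 250 bases before to 50 bases after the start used for that entry. The Dlx2 window covers the annotated 5′ end of Dlx2 (71546754). The Dlx1 window lies inside the annotated gene, downstream of its 5′ end at 71528113. Both Dlx6os1 windows lie inside the annotated span, downstream of its 5′ end at 6871592. For Dlx1 and Dlx6os1 the counts below describe internal starts and not the annotated 5′ ends. CG-rich promoters are a known class of PRC2 targets in mammals.
Dlx1, chr2:71529195-71529494, plus strand: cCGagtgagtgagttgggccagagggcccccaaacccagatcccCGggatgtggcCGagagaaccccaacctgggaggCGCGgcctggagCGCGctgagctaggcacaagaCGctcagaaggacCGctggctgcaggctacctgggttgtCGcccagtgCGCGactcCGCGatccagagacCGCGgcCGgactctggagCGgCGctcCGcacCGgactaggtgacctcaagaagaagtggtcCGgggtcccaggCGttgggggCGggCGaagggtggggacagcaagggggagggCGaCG
Dlx2, chr2:71546705-71547004, minus strand: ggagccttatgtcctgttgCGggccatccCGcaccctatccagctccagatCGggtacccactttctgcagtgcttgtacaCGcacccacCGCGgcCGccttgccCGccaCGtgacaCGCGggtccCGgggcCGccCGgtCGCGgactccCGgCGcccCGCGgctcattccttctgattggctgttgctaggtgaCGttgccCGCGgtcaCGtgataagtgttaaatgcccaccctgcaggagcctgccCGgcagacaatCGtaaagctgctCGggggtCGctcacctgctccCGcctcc
Dlx6os1, chr6:6869484-6869783, minus strand: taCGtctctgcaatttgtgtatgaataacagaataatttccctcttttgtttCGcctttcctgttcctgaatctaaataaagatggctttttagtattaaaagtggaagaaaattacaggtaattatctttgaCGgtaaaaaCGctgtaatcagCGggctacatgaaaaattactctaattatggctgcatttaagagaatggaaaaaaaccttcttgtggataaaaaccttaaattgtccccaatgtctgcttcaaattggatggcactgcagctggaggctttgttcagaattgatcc
The Dlx1 promoter held 27 CG dinucleotides and the Dlx2 promoter 29, counts reached by 15.5% and 12.9% of the 32851 promoters of the same length. The printed Dlx6os1 promoter held 5, a count reached by 62% of promoters, and its GC content was 35.7%, against 69.3% for Dlx1 and 66.3% for Dlx2. On either strand, TAATTA, a core that homeodomain proteins bind, occurred 2 times in the printed Dlx6os1 promoter and 0 times in those of Dlx1 and Dlx2; it is present in 5.29% of all promoters. CAGCTG, an E-box of the kind bound by bHLH factors, occurred 1 time in the printed Dlx6os1 promoter and 0 times in those of Dlx1 and Dlx2, and is present in 16.3% of all promoters. The other Dlx6os1 promoter (chr6:6861634-6861933, minus strand) held 3 CG dinucleotides, a count reached by 76.7% of promoters, 1 TAATTA and 0 CAGCTG. These are matches of letters and not measured binding.

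In wt forebrain, Dlx1, Dlx2 and Dlx1as were the members with the highest levels, Dlx5 and Dlx6 came next, and Dlx3 and Dlx4 were near or at 0. At E13.5, Dlx1as had 91.1 and 95.4 RPKM, Dlx2 had 69.2 and 74.9 RPKM, and Dlx1 had 68.4 and 73.6 RPKM. Dlx5 had 37.3 and 37.9 RPKM, and Dlx6 had 14.2 and 13.8 RPKM. Dlx1 and Dlx2 overlapped each other, and every other neighbour in this order was separated by more than the spread between libraries except Dlx3, with 0.5 and 0.2 RPKM, and Dlx4, listed at 0 in both libraries, which lie close to the rounding step. In wt spinal cord all 7 members were at or below 0.5 RPKM. The E15.5 wt order was the same, with Dlx2 at 57.6 and 53.0 RPKM and Dlx1 at 50.0 and 52.6 RPKM at E15.5, which did not overlap but lay close together. In EED-cKO forebrain the 5 expressed members lay close together, and the order was another one: Dlx5, Dlx6, Dlx2, Dlx1 and Dlx1as, from highest to lowest, in both libraries. None of those neighbours was separated beyond the spread between the libraries.

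**Figure D2:**
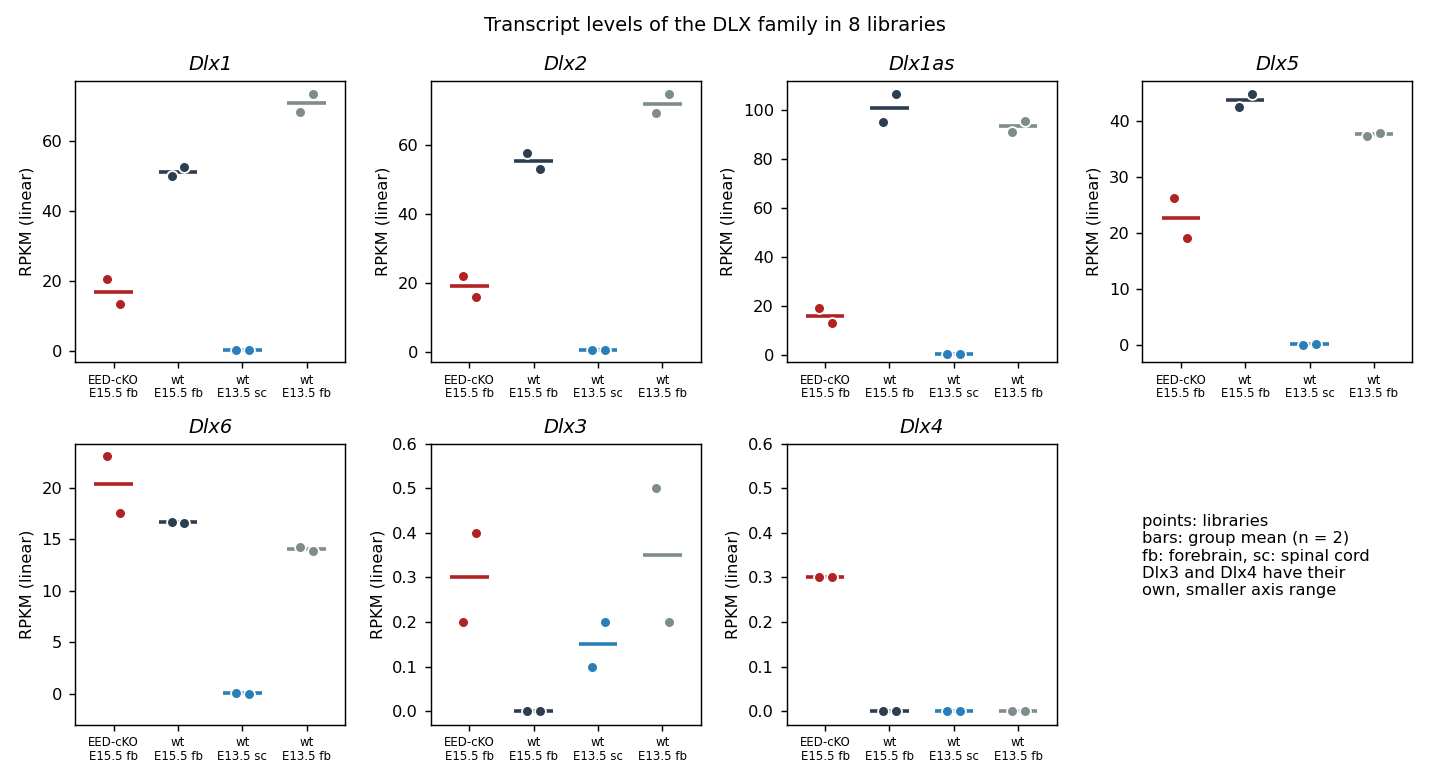
RPKM on a linear axis of each DLX member in the 8 libraries, with 1 point per library and a bar at the mean of 2. The EED-cKO points of Dlx1 (20.6 and 13.6), Dlx2, Dlx1as and Dlx5 lie below those of wt E15.5 forebrain, those of Dlx6 (23.1 and 17.5) lie just above, and wt spinal cord is at or near 0; Dlx3 and Dlx4 have a smaller axis range.

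The main comparison sets EED-cKO forebrain against wt forebrain of the same age, to see which DLX transcripts differ when neural cells lose EED. Of the 5 members that passed the filter (1 RPKM or more in 2 or more libraries), Dlx1, Dlx2, Dlx1as and Dlx5 fell and Dlx6 was not called. A call is a Benjamini-Hochberg adjusted p under 0.05 over 17022 genes in limma, fitted on log2(RPKM + 1), a scale that understates the fold of low genes. Among all tested genes 46.9% were called in this comparison, 30.2% higher and 16.7% lower in EED-cKO (5149 and 2838 genes, against 3540 and 4314 after quantile normalization and 4043 and 4240 after median ratio scaling). A fall of at least 1 on the log2 scale, seen for Dlx1, Dlx2 and Dlx1as, was called for 1.14% of tested genes. The 2 groups did not overlap for any of the 5 members; the same holds for 70.3% of tested genes. The Dlx3 and Dlx4 genes did not pass the filter.

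The chromosome 2 pair fell together. Dlx1 had 20.6 and 13.6 RPKM in EED-cKO forebrain and 50.0 and 52.6 RPKM in wt. Both EED-cKO libraries were below both wt libraries, and means were 17.1 ± 4.95 and 51.3 ± 1.84 RPKM (SD, n = 2 each), 3.0-fold lower in EED-cKO (log2 −1.56 ± 0.17 SE, limma adjusted p = 5.0e-04). Dlx2, which acts largely in parallel with Dlx1, had 22.1 and 16 RPKM in EED-cKO forebrain and 57.6 and 53.0 RPKM in wt (log2 −1.51 ± 0.14, limma adjusted p = 2.8e-04). Dlx2 over Dlx1 stayed near 1, at 1.07 and 1.18 in the EED-cKO libraries and 1.15 and 1.01 in wt. The antisense RNA Dlx1as had 19.2 and 12.7 RPKM in EED-cKO forebrain and 94.9 and 106.5 RPKM in wt. It was 6.31-fold lower by the means (log2 −2.61 ± 0.17, limma adjusted p = 7.7e-05), the largest change among the members. Dlx1as over Dlx1 was 0.932 and 0.934 in EED-cKO forebrain and 1.9 and 2.02 in wt forebrain. That difference in ratio was −1.05 on the log2 scale of RPKM + 1, and the exact two-sided permutation p was 0.33, the smallest that 2 libraries against 2 allow.

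On chromosome 6, Dlx5 fell and Dlx6 did not pass the test. Dlx5 had 26.3 and 19.1 RPKM in EED-cKO forebrain and 42.5 and 44.9 RPKM in wt (means 22.7 ± 5.09 and 43.7 ± 1.7, SD, n = 2 each). It was 1.93-fold lower by the means (log2 −0.93 ± 0.14 SE, limma adjusted p = 0.00181). Dlx6 had 23.1 and 17.5 RPKM in EED-cKO forebrain and 16.7 and 16.6 RPKM in wt. The groups did not overlap, the lower EED-cKO library lay close to both wt libraries, and the change was 0.26 ± 0.13 on the log2 scale (limma adjusted p = 0.142). Without EED-cKO replicate 2 the change was 0.45 and Dlx6 was called higher (adjusted p = 0.0299), and without replicate 1 it was 0.07 (adjusted p = 0.648). Dlx6os1, which spans Dlx6 on the other strand and is not a member, had 3.2 and 2.2 RPKM in EED-cKO forebrain and 18.6 and 19.9 RPKM in wt. It fell 7.13-fold by the means (log2 −2.46 ± 0.14, limma adjusted p = 5.5e-05). Dlx6os2, named after its values were seen, was at 0.1 and 0.2 RPKM in EED-cKO forebrain and 0.3 and 0.1 RPKM in wt, with no call (log2 −0.06 ± 0.098, adjusted p = 0.664).

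The proportions given here differed between the genotypes without overlap of the libraries, whereas Dlx2 over Dlx1 (above) overlapped. Dlx6 over Dlx5 was 0.878 and 0.916 in EED-cKO forebrain and 0.393 and 0.37 in wt E15.5 forebrain, a log2 difference of 1.19 when computed, as for every ratio tested here, from RPKM + 1. The sum of Dlx5 and Dlx6 over the sum of Dlx1 and Dlx2 was 1.16 and 1.24 in EED-cKO forebrain and 0.55 and 0.582 in wt, a log2 difference of 1.05. Both differences had an exact two-sided permutation p of 0.33, the smallest possible here, so neither can pass a threshold of 0.05 in this design. Dlx6os1 over Dlx6 was 0.139 and 0.126 in EED-cKO forebrain and 1.11 and 1.2 in wt. Of the summed RPKM of Dlx1, Dlx2, Dlx5 and Dlx6, which was 92.1 and 66.2 in EED-cKO forebrain and 166.8 and 167.1 in wt, Dlx6 made up 25.1% and 26.4% in EED-cKO libraries, against 10% and 9.93% in wt libraries. Dlx1 made up 22.4% and 20.5% in EED-cKO libraries, against 30% and 31.5% in wt libraries. The share of Dlx5 was 28.6% and 28.9% in EED-cKO libraries, against 25.5% and 26.9% in wt libraries.

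**Figure D3:**
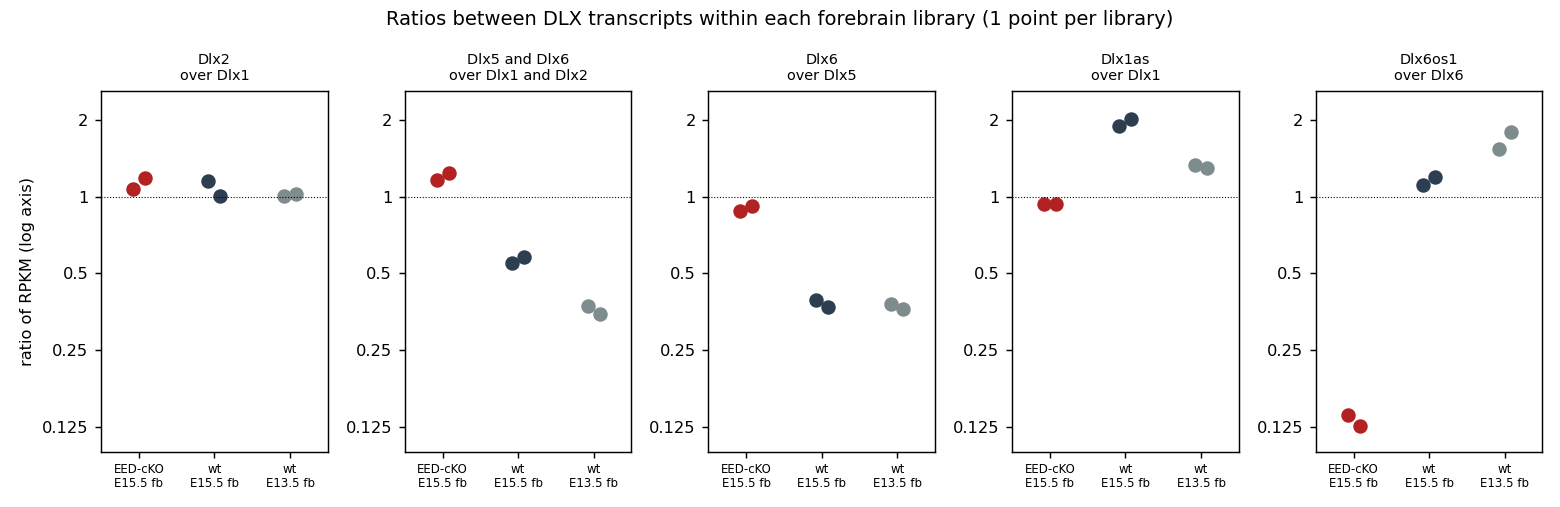
Ratios of RPKM within each forebrain library on a log axis, 1 point per library, for EED-cKO E15.5, wt E15.5 and wt E13.5. Dlx2 over Dlx1 lies between 1.01 and 1.18 in all 6 libraries, whereas Dlx6 over Dlx5 is 0.878 and 0.916 in EED-cKO and at most 0.393 in wt, and Dlx6os1 over Dlx6 is 0.139 and 0.126 in EED-cKO and at least 1.11 in wt.

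The chromosome 11 pair was barely detected. Dlx3 had 0.2 and 0.4 RPKM in EED-cKO forebrain and was listed at 0 in both libraries of wt E15.5 forebrain, and Dlx4 had 0.3 RPKM in both EED-cKO libraries and was listed at 0 in the other 6 libraries of the series. In a fit with no filter on low values, the log2 change was 0.37 ± 0.13 for Dlx3 (limma adjusted p = 0.0923) and 0.38 for Dlx4. These levels are 2 to 4 rounding steps of 0.1 RPKM. Dlx4 entered that fit only through the EED-cKO libraries, and its rounded values were equal in each group, so no test is given for it. Dlx4os, antisense to Dlx4, had 1.2 RPKM in both EED-cKO libraries and 0.8 RPKM in both wt E15.5 libraries (log2 0.29). It passed the filter only through the EED-cKO libraries, and its values were equal within each group after rounding, so no test is given; its change was −0.03 after quantile normalization.

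The EED-cKO libraries differed from each other in the DLX genes more than the wt libraries did. Replicate 1 over replicate 2 was 1.51 for Dlx1, 1.38 for Dlx2, 1.38 for Dlx5, 1.32 for Dlx6, 1.51 for Dlx1as and 1.45 for Dlx6os1, whereas the same ratio for these transcripts lay between 0.883 and 1.09 in wt forebrain. The summed RPKM of 15 meninges and mesenchyme genes was 1154.9 and 1304.7 in EED-cKO replicates 1 and 2, and 392.0 and 298.9 in wt E15.5 forebrain. All 15 of those genes rose in EED-cKO forebrain, with a median log2 change of 1.63 beside 0.08 over all tested genes. Of 10 tested red blood cell genes, 1 rose (Hbb-y), 1 fell (Hbb-bt) and 8 were not called. Hbb-bt had 5.9 and 8.1 RPKM in EED-cKO forebrain and 395.4 and 547.4 RPKM in wt E15.5 forebrain. Hbb-bs, which was not called, had 5109.1 and 5902.3 RPKM in EED-cKO and 3159.1 and 4340.1 RPKM in wt. The cause of the Hbb-bt difference was not tested. None of the genes of either list was at 0 in any of these libraries, and their part in the DLX values was not tested.

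Of 6 PRC2 core genes, Eed included, 4 fell and 1 rose, with a median log2 change of −0.43. Regulators that act before or beside the DLX genes in the ventral forebrain moved in both directions: of 16 tested, 4 rose and 5 fell, with a median of −0.05. Gsx2, a homeodomain factor upstream of Dlx1 and Dlx2 in the lateral ganglionic eminence, had 0.4 and 0.6 RPKM in EED-cKO forebrain and 3.3 and 3.0 RPKM in wt (log2 −1.47 ± 0.13 SE, limma adjusted p = 2.2e-04). Otx2, a factor of forebrain and midbrain, had 38.9 and 38.3 RPKM in EED-cKO forebrain and 14.9 and 9.8 RPKM in wt, and rose (log2 1.60 ± 0.17). The ventral signal Shh also rose, with 5.5 RPKM in both EED-cKO libraries and 2.3 and 2.7 RPKM in wt (log2 0.90 ± 0.10). Nkx2-1, which specifies the medial ganglionic eminence, had 38.3 and 29.4 RPKM in EED-cKO forebrain and 19.4 and 19.2 RPKM in wt (log2 0.77 ± 0.13, adjusted p = 0.00288). Its row moved, and its call was lost with a pseudocount of 0.1 (adjusted p = 0.0732) and in both other row orders, deposited and alphabetical with hyphens kept (log2 0.07 in each).

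Among 25 genes listed as dependent on Dlx1 and Dlx2 in the forebrain, 11 fell, 7 rose and 7 were not called, with a median log2 change of −0.38. The list set no direction for any gene, so these counts do not separate activated from repressed genes. It also holds Nkx2-1, which is counted above among the regulators, and Slc32a1, whose values are given below. Both of these were called higher, Nkx2-1 with the limits given above. Lhx6, a LIM-homeobox factor of medial ganglionic eminence interneurons, had 2.8 and 2.6 RPKM in EED-cKO forebrain and 17.2 and 17.0 RPKM in wt (log2 −2.29 ± 0.076, adjusted p = 7.0e-06). Its fitted fall was larger than those of Dlx1 and Dlx2 themselves, and the difference was not tested. Mef2c, a MADS-box factor of developing neurons, fell (log2 −2.08 ± 0.11), as did Zeb2, which directs interneurons toward the cortex (−1.67 ± 0.12). Lhx8, a factor of ventral cholinergic and striatal neurons, had 13.9 and 11.6 RPKM in EED-cKO forebrain and 12.1 and 14.0 RPKM in wt, with overlapping groups and no call (log2 −0.03 ± 0.13, adjusted p = 0.86).

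Genes of GABA synthesis and vesicular transport were called higher or not called. Gad1, which encodes a GABA-synthesizing enzyme, had 83.4 and 79.4 RPKM in EED-cKO forebrain and 52.5 and 45.7 RPKM in wt, and rose (log2 0.72 ± 0.077 SE, limma adjusted p = 5.0e-04). Slc32a1, the vesicular GABA transporter, whose row moved, had 101.0 and 94.5 RPKM in EED-cKO forebrain and 59.2 and 50.5 RPKM in wt (log2 0.83 ± 0.086, adjusted p = 4.4e-04). Gad2, which encodes the other GABA-synthesizing enzyme and was named after its values were seen, had overlapping groups, with 20.7 and 19.6 RPKM in EED-cKO forebrain and 23.7 and 18.0 RPKM in wt (log2 −0.04 ± 0.14, adjusted p = 0.862). Of the 20 GABAergic interneuron genes, which include these, 12 fell and 3 rose, with a median of −0.61. Npy, a neuropeptide whose row moved, fell (log2 −1.32 ± 0.10), as did Sst, the somatostatin gene (−0.80 ± 0.099), Htr3a, a serotonin receptor of caudal ganglionic eminence interneurons (−1.36 ± 0.15), and Sp9 (moved), a zinc-finger factor of the ganglionic eminences (−0.70 ± 0.11). Npy was at 0.07 on the log2 scale in both other row orders, and Sp9 at 0.00 in the deposited one.

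Lists of other neuron types also held many called genes. Of 19 tested striatal and lateral ganglionic eminence genes 11 fell and 4 rose (median −0.58), among them Ppp1r1b (moved), the DARPP-32 gene of striatal projection neurons (log2 −2.31 ± 0.15 SE), Bcl11b (moved), a zinc-finger factor (−1.57 ± 0.12), and Drd1, a dopamine receptor (−1.43 ± 0.16), which all fell. In the deposited row order Ppp1r1b was at −0.39 with no call and Bcl11b at 0.19. Against the 11 that fell, Penk and Drd2 of this list, named after their values were seen, lay higher. Penk had 25.7 and 37.0 RPKM in EED-cKO forebrain and 16.7 and 16.5 RPKM in wt. Drd2 had 8.5 and 9.8 RPKM in EED-cKO forebrain and 6.6 and 6.1 RPKM in wt. Of 16 pallial factors, which mark the dorsal forebrain, whose own progenitors lack DLX expression, 12 fell and 1 rose, with a median of −1.68. Neurod6 (moved; log2 −4.67 ± 0.14) and Eomes (−3.06 ± 0.092), factors of cortical excitatory neurons and their progenitors, fell; in both other row orders, deposited and alphabetical with hyphens kept, Neurod6 was at −0.03 with no call. Of 15 tested spinal GABAergic and inhibitory neuron genes, 12 rose and 2 fell, with a median of 1.82. Pax2, a paired-box factor of spinal inhibitory neurons, had 20.0 and 16.8 RPKM in EED-cKO forebrain and 0.0 and 0.1 RPKM in wt (log2 4.2 ± 0.11, limma adjusted p = 2.9e-06). Lbx1, a dorsal spinal homeobox gene, had 9.5 and 7.6 RPKM in EED-cKO forebrain and was listed at 0 in both wt libraries. Tal1 (log2 4.09 ± 0.27) and Gata3 (3.39 ± 0.53), factors of a class of ventral spinal and midbrain inhibitory neurons, also rose. Tal1 had 55.7 and 49.8 RPKM in EED-cKO forebrain, 4.4 and 5.7 RPKM in wt spinal cord and 3.9 and 4.3 RPKM in wt E13.5 forebrain. Gata3 had 30.4 and 33.5 RPKM, 2.9 and 3.1 RPKM, and 2.5 and 0.6 RPKM in the same groups. Gad1, Gad2 and Slc32a1 belong to both inhibitory lists, and the part of these neuron types in the Gad1 and Slc32a1 values was not tested.

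Genes of tissues in which DLX genes act outside the brain were mostly called higher in EED-cKO forebrain. Of 19 tested branchial arch and craniofacial factors, 1 (Hand2) passed the filter only through EED-cKO libraries; of the other 18, 14 rose and 2 fell. The median log2 change over the 19 was 1.22. Hand2, which lies downstream of endothelin signalling in the lower jaw, had 22.8 RPKM in both EED-cKO libraries and was listed at 0 in the other 6 libraries. It passed the filter only through the EED-cKO libraries, so no test is given for it. Barx1, a homeobox gene of the molar field and stomach, had 21.4 and 17.1 RPKM in EED-cKO forebrain and 0.1 and 0.0 RPKM in wt E15.5 forebrain. In wt E13.5 forebrain Barx1 had 3.4 and 2.5 RPKM. Pitx1, a homeobox gene of hindlimb and jaw, had 7.9 and 11.4 RPKM in EED-cKO forebrain and was listed at 0 in wt E15.5 forebrain. In wt E13.5 forebrain Pitx1 had 2.9 and 1.4 RPKM. The 20 arch genes summed to 260.6 and 246.0 RPKM in EED-cKO forebrain, with 0 genes at 0, and to 121.7 and 107.6 RPKM in wt, with 3 and 4 genes at 0.

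Of 12 tested epidermis and surface ectoderm genes, a tissue in which Dlx3 acts, 2 passed the filter only through EED-cKO libraries; of the other 10, 9 rose and 1 fell (median over the 12, 1.41). Tfap2a, a factor of surface ectoderm and neural crest, had 10.5 and 11.7 RPKM in EED-cKO forebrain and 0.9 and 0.3 RPKM in wt (log2 2.94 ± 0.17 SE, limma adjusted p = 6.1e-05). It had 12.7 and 12.8 RPKM in wt E13.5 spinal cord, so its level is not particular to surface ectoderm. Epcam, an epithelial adhesion gene, had 7.9 and 21.3 RPKM in EED-cKO forebrain and 1.0 and 1.4 RPKM in wt E15.5 forebrain (log2 2.68 ± 0.38). In wt E13.5 forebrain Epcam had 8.3 and 6.2 RPKM. The 16 listed genes summed to 80.7 and 98.5 RPKM in EED-cKO forebrain and 28.4 and 29.3 RPKM in wt, with 0 genes at 0 in either EED-cKO library and 2 and 3 in wt. Of 8 tested bone and skeletal genes, 2 passed the filter only through EED-cKO libraries; of the other 6, 5 rose and 0 fell (median over the 8, 0.77), with Col1a1 (moved), a fibrillar collagen, at 125.0 and 207.4 RPKM in EED-cKO forebrain and 36.6 and 25.2 RPKM in wt. The 12 listed bone genes summed to 392.9 and 540.6 RPKM in EED-cKO forebrain, with 1 gene at 0 in each, and 152.6 and 113.4 RPKM in wt, with 0 at 0. Col1a1 and Col1a2 (both moved) are also in the meninges and mesenchyme list. They made up 79.6% and 84.3% of this sum in EED-cKO forebrain and 65.6% and 61.5% in wt. Without them the sum was 80.2 and 85.1 RPKM in EED-cKO forebrain and 52.5 and 43.7 RPKM in wt. In the deposited row order the log2 change of Col1a1 was 0.07. Of 12 tested olfactory and otic placode genes, 10 rose and 1 fell (median 1.04), and the 16 listed genes summed to 101.9 and 111.1 RPKM in EED-cKO forebrain and 40.2 and 31.7 RPKM in wt, with 0 at 0 in EED-cKO and 1 in each wt library. The part of such tissues in the Dlx5 and Dlx6 values was not tested. A gene that passed the filter only through EED-cKO libraries had to be higher there, and genes that did not pass are left out of these counts. Among those left out were Ibsp, Bglap, Acan and Dmp1 (bone) and Trp63, Krt5 (moved), Krt14 (moved) and Grhl2 (epidermis). These were named after their values were seen, and all lay at or below 0.7 RPKM in the E15.5 libraries. Ibsp had 0.1 and 0.3 RPKM in EED-cKO forebrain and 0.3 and 0.7 RPKM in wt. Krt5 had 0.6 RPKM in both EED-cKO libraries and 0.0 RPKM in both wt libraries.

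**Figure D4:**
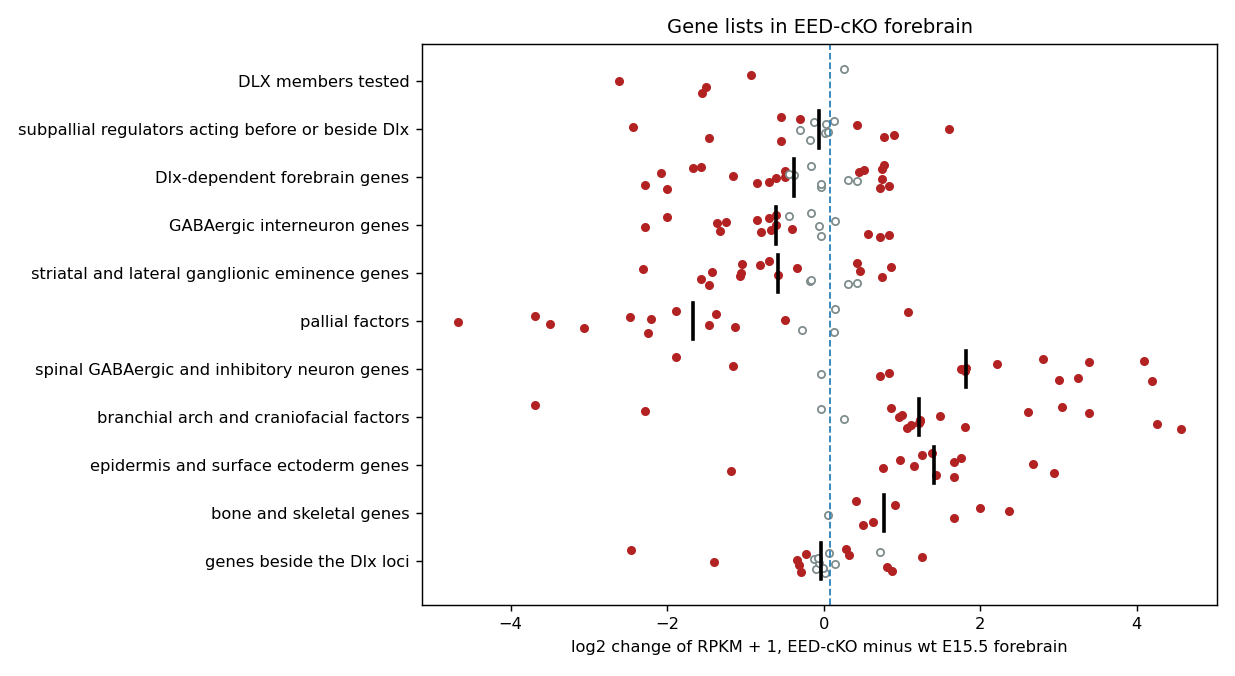
Log2 change of RPKM + 1, EED-cKO minus wt E15.5 forebrain, with 1 point per tested gene (filled: limma adjusted p under 0.05), a black bar at each list's median, and a dashed line at the median of all tested genes, 0.08. Pallial factors have a median of −1.68, and the spinal inhibitory, arch, epidermis and bone lists have medians of 1.82, 1.22, 1.41 and 0.77. The arch, epidermis and bone points and medians include 1, 2 and 2 genes that passed the filter only through EED-cKO libraries. Such genes had to be higher there. The list of genes beside the Dlx loci includes Dlx4os, which also passed only that way. The DLX members carry no median.

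Genes beside the 3 loci did not share 1 direction. Of 20 tested, antisense RNAs included, 1 (Dlx4os) passed the filter only through EED-cKO libraries; of the other 19, 4 rose and 6 fell. The median log2 change over the 20 was −0.04. Metap1d, a mitochondrial aminopeptidase gene 2.92 kb from Dlx1, had 17.6 and 15.6 RPKM in EED-cKO forebrain and 16.2 and 16.5 RPKM in wt, with no call (log2 0.02 ± 0.12 SE, limma adjusted p = 0.922). Sdhaf3, a succinate dehydrogenase assembly factor gene 73.9 kb from Dlx5, was not called either (log2 0.14 ± 0.12, adjusted p = 0.392). Dync1i1, a dynein subunit gene 835 kb from Dlx6 whose exons hold known limb enhancers of Dlx5 and Dlx6, fell, with 23.3 and 23.5 RPKM in EED-cKO forebrain and 64.3 and 62.3 RPKM in wt (log2 −1.40 ± 0.13, adjusted p = 2.9e-04). Itga3 (moved), an integrin gene 43.3 kb from Dlx3, rose (log2 1.25 ± 0.17), as did Itga6 (moved), 240 kb from Dlx2 (0.87 ± 0.13); in the deposited row order Itga6 was at 0.22 with no call.

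The comparison of the 2 wt tissues at E13.5 asked how regional the family is in wt embryos. All 5 tested members were lower in spinal cord than in forebrain, where 45.7% of tested genes were called, 21.8% higher and 23.9% lower in spinal cord. Dlx1 had 0.4 and 0.5 RPKM in spinal cord and 68.4 and 73.6 RPKM in forebrain (log2 −5.63 ± 0.17 SE, limma adjusted p = 1.4e-06). Dlx2 had 0.4 RPKM in both spinal cord libraries and 69.2 and 74.9 RPKM in forebrain (−5.70 ± 0.14), and Dlx1as had 0.3 RPKM in both and 91.1 and 95.4 RPKM in forebrain (−6.18 ± 0.17). Dlx5 had 0.1 and 0.2 RPKM in spinal cord and 37.3 and 37.9 RPKM in forebrain (−5.07 ± 0.14). Dlx6 had 0.1 and 0.0 RPKM in spinal cord and 14.2 and 13.8 RPKM in forebrain (−3.84 ± 0.13, limma adjusted p = 2.7e-06). Dlx3, with 0.1 and 0.2 RPKM in spinal cord and 0.5 and 0.2 RPKM in forebrain, did not pass the filter, and its groups overlapped. Dlx6os1 was listed at 0 in both spinal cord libraries and had 21.9 and 24.8 RPKM in forebrain, and Dlx4os was listed at 0 in all 4 libraries.

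Most regulators beside the DLX genes were lower in spinal cord too, whereas Gad1 was not called. Of 16 tested subpallial regulators, 13 were lower and 1 higher in spinal cord, among them Nkx2-1 (log2 −5.73 ± 0.13 SE) and Six3, an anterior forebrain homeobox gene (−4.15 ± 0.097). Lhx6 (−3.66 ± 0.076) and Lhx8 (−3.69 ± 0.13) were also lower in spinal cord. Gad1 had 21.0 and 21.7 RPKM in spinal cord and 20.5 and 21.1 RPKM in forebrain, with overlapping groups (log2 0.04 ± 0.077, limma adjusted p = 0.746). Gad2 was lower in spinal cord (−0.70 ± 0.14, adjusted p = 0.00557). Slc32a1 was higher (0.33 ± 0.086, adjusted p = 0.0183), a call lost without either spinal cord library or either forebrain library (0.29 to 0.36, adjusted p from 0.0577 to 0.104). Pax2 (5.27 ± 0.11) and Lbx1 (5.36 ± 0.12) were higher in spinal cord, where they mark inhibitory neurons.

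**Figure D5:**
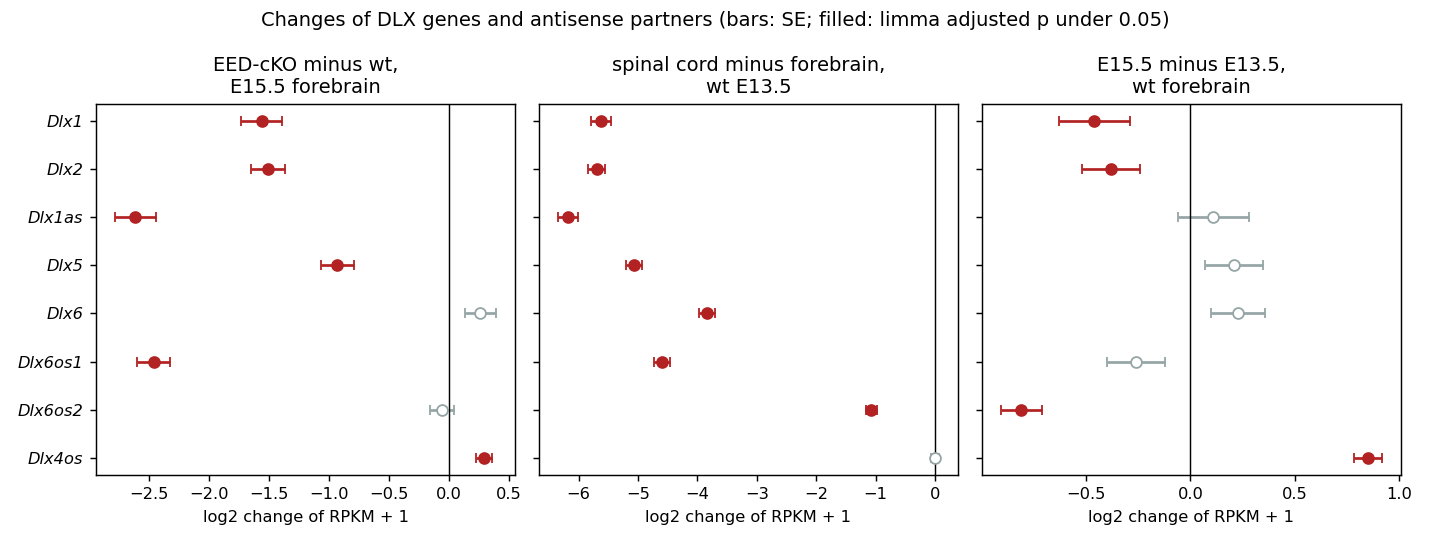
Log2 changes of RPKM + 1 with SE bars for DLX members and antisense RNAs in the 3 comparisons, filled where the limma adjusted p is under 0.05. Each panel has its own axis range. Dlx4os passed the filter only through EED-cKO libraries, and its rounded values were equal within each group. Its SE bar and fill are therefore not to be read as a test. Dlx1, Dlx2, Dlx1as and Dlx5 are lower in EED-cKO, the 5 members shown are lower in spinal cord, at −6.18 to −3.84, and by age Dlx1 (−0.46) and Dlx2 (−0.38) are lower at E15.5, where the median of all tested genes is 0.52.

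Between wt forebrain at E15.5 and E13.5, 2 of the 5 tested members were called. Dlx1 had 50.0 and 52.6 RPKM at E15.5 and 68.4 and 73.6 RPKM at E13.5 (log2 −0.46 ± 0.17 SE, limma adjusted p = 0.0374). Dlx2 had 57.6 and 53.0 RPKM at E15.5 and 69.2 and 74.9 RPKM at E13.5 (−0.38 ± 0.14, adjusted p = 0.0394). Both were called lower, in a comparison where 77.1% of tested genes were called, 62.5% higher and 14.5% lower at E15.5 (10646 and 2471 genes, against 5979 and 6049 after quantile normalization and 6132 and 5955 after median ratio scaling). The median log2 change of all tested genes was 0.52, and the summed RPKM differed between the ages, so age and the block of columns cannot be told apart. Relative to that median, Dlx1 was at −0.98, Dlx2 at −0.89, Dlx1as at −0.41, Dlx5 at −0.31 and Dlx6 at −0.28. Dlx5 had 42.5 and 44.9 RPKM at E15.5 and 37.3 and 37.9 RPKM at E13.5 (0.21 ± 0.14, adjusted p = 0.2), and Dlx6 had 16.7 and 16.6 RPKM at E15.5 and 14.2 and 13.8 RPKM at E13.5 (0.23 ± 0.13, adjusted p = 0.135). Dlx1as was not called (0.11 ± 0.17, adjusted p = 0.574). The calls of Dlx1 and Dlx2 were lost without any one of the wt libraries (log2 −0.51 to −0.41 and −0.43 to −0.32), and the signs of Dlx5, Dlx6 and Dlx1as turned under both other scalings (−0.45 and −0.42, −0.24 and −0.38, −0.76 and −0.54).

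Ratios of RPKM within a library do not depend on a scaling factor of that library. The sum of Dlx5 and Dlx6 over the sum of Dlx1 and Dlx2 was 0.55 and 0.582 at E15.5 and 0.374 and 0.348 at E13.5. Dlx6 over Dlx5 was 0.393 and 0.37 at E15.5 and 0.381 and 0.364 at E13.5, with overlapping groups. Dlx1as over Dlx1 was 1.9 and 2.02 at E15.5 and 1.33 and 1.3 at E13.5, and Dlx6os1 over Dlx6 was 1.11 and 1.2 at E15.5 and 1.54 and 1.8 at E13.5. Dlx4os had 0.8 RPKM in both E15.5 libraries and was listed at 0 in both E13.5 libraries, while Dlx4 was listed at 0 in all 4. Gad1 was higher at E15.5 (log2 1.20 ± 0.077 SE, limma adjusted p = 7.3e-06).

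Across the 8 libraries, the genes outside the family whose log2(RPKM + 1) was most like that of each pair differed. For Dlx1 and Dlx2 the closest was Lhx2, a LIM-homeobox gene of the cortex (Pearson r = 0.999 and 0.998), followed by Gpc1, a glypican (0.994 for both). For Dlx5 it was Aif1l (r = 0.997), and Tbr1, a T-box factor of cortical neurons, was also among the closest 5 (0.995). For Dlx6 it was Six3 (r = 0.996), then Nek6 (moved), a mitotic kinase gene (0.996), and Lhx8 (0.992). The 8 points share the contrast of spinal cord with forebrain, which dominates these values, so they are descriptions. Lhx2 fell in EED-cKO forebrain, with 58.7 and 49.9 RPKM in EED-cKO and 137.1 and 148.0 RPKM in wt (log2 −1.38 ± 0.11 SE, limma adjusted p = 2.0e-04). Six3 had 33.1 and 34.2 RPKM in EED-cKO forebrain and 27.4 and 22.7 RPKM in wt (log2 0.42 ± 0.097, adjusted p = 0.0115). That call did not hold when either EED-cKO library was left out (0.44 with adjusted p = 0.0552 and 0.39 with adjusted p = 0.0789).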

How the data were processed

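Total RNA of dissected forebrain and spinal cord was sequenced as unstranded single-end reads of 50 bases, per the labels' protocols. The authors deposited 1 table of RPKM values for 8 libraries. The submitters' processing notes name mm9 and GRCm38 without a role; the aligner and counter are not given in the sources used here. From the deposited RPKM, E15.5 values were reassigned to gene names in alphabetical order, case and hyphens ignored, a choice made after seeing the data. Where a symbol was duplicated (16 symbols), only its highest row by mean entered.

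The 17022 genes that reached 1 RPKM in 2 or more libraries were fitted as log2(RPKM + 1) in limma 3.58.1 (R 4.3.3, eBayes with trend, two-sided), with 4 group means over all 8 libraries. The rest was done in Python 3.11.15 (pandas 2.3.3, numpy 2.4.6, matplotlib 3.10.9). Ratios were compared with exact permutation tests. Alternatives were pseudocounts of 0.1 and 0.5, no filter, quantile normalization, median ratio scaling, other row orders, fits on 4 libraries, replicate blocks and each library left out. Members and lists were chosen with earlier results of these data known.

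Named genes were the members, Eed, genes beside the loci, up to 4 called members of each list with the largest changes and without overlap between groups, and up to 5 similar genes for each of Dlx1, Dlx2, Dlx5 and Dlx6, with at least 2 RPKM in the highest group. Exceptions are said to have been named after their values were seen. A few genes of the lists are not reported here by name and are only part of list counts.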

Additional observations from a re-analysis of the deposited data

How the results depend on the processing

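In the EED-cKO comparison 4 members were called lower under every alternative run that kept 2 libraries in each group fitted. With 1 library left out, the log2 changes of these 4 stayed negative. Without EED-cKO replicate 2 the log2 change of Dlx6 was 0.45. With no filter Dlx4 also came out higher, but it entered only through the EED-cKO libraries with equal rounded values, so that call is not a test. Genes called over the whole table numbered 7987, 4777 with only the 4 libraries compared, and 4922 to 9606 with 1 library left out, where the lone library of a group is assumed to vary like the other groups. All 5 tested members were called lower in spinal cord under every alternative run. By age 2 members were called, 1 with a pseudocount of 0.1, 1 with no filter, 4 after quantile normalization, 5 after median ratio scaling, 4 (2 higher, 2 lower) with only the 4 libraries compared, and 0 to 3 with 1 library left out. The cause was not tested. Signs turned by age for Dlx5 (−0.45 and −0.42), Dlx6 (−0.24 and −0.38) and Dlx1as (−0.76 and −0.54) after quantile normalization and median ratio scaling. In EED-cKO they turned for Dlx4os (−0.03, quantile), Metap1d (−0.13 quantile, −0.10 median ratio, −0.06 without EED-cKO replicate 1), Sdhaf3 (−0.07 quantile, −0.0 to 0.27 with 1 library left out), Npy (0.07 in both other row orders) and Bcl11b (0.19, deposited order). With 1 library left out, uncalled values turned for Lhx8 (−0.15 to 0.09), Gad2 (−0.22 to 0.15) and Dlx6os2 (−0.18 to 0.06). The log2 differences of ratios ranged from 1.0 to 1.09 for the pairs, 1.15 to 1.23 for Dlx6 over Dlx5, and −1.1 to −1.01 for Dlx1as over Dlx1 with 1 library left out. The labels tie no replicate numbers together, and deviations of same-numbered libraries correlated between −0.124 and 0.211. A replicate block gave 4, 5 and 2 members and 7608, 7466 and 12943 genes called in the 3 comparisons. Crossed numbers in EED-cKO, added after seeing the data, gave 4 members and 8013 genes. Without counts, depth limits cannot be given; values of 0.1 to 0.5 RPKM rest on few rounding steps.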
